A study of Rattus norvegicus with 6 samples.

Results

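CpG methylation was measured at GABA receptor subunit genes in rat dorsal root ganglia (DRG), the clusters of sensory neuron cell bodies beside the spinal cord, after spinal nerve ligation (SNL) or a sham operation. The 7 genes chosen by name were Gabra2, Gabra4, Gabra5, Gabrb2 and Gabrg3, of the GABA-A receptor, and Gabbr1 and Gabbr2, of the GABA-B receptor. Members were all rows of the deposited annotated table whose nearest RefSeq transcript carries one of these symbols, plus all sites within 2 kb of such a row that had 10 or more reads in every library. This gave 25 of the 32674 annotated sites, in 5 of the 7 genes, and 95 of the 424646 sites with 10 or more reads, the 25 included. Gabbr2 held 10 annotated sites, Gabbr1 held 6, Gabrb2 held 5, and Gabra2 and Gabra4 held 2 each. No row matched to a symbol carried Gabra5 or Gabrg3, which were not analysed here. Symbols were found for 7627 of 8123 transcripts, so a row with an unmatched transcript would be missed.

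Adult male Sprague-Dawley rats, aged 8 to 9 weeks and about 220 g, had the left L5 and L6 spinal nerves tied off in the SNL group (n = 3 libraries). In the Sham group (n = 3 libraries) the nerve was not tied, and per the labels the sham operation was on the opposite side of the body, so a library of each group may come from the same animal. All DRG were taken 3 weeks after surgery. The labels do not say whether each library was a separate animal or a pool, so the spread between libraries may be technical in part. P-values rest on that spread, in the main test shared in part over all sites or genes tested, and on read sampling. SNL is a surgical model of neuropathic pain. The question is whether methylation at genes of the inhibitory GABA system differs in the injured ganglion.

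GABA is the main inhibitory transmitter of the adult nervous system. GABA-A receptors are chloride channels built from several subunits, with GABA bound between alpha and beta subunits, and sensory neurons carry them along their axons and at their spinal terminals. Sensory neurons keep a high internal chloride, so that opening these channels depolarises the terminal and dampens transmitter release, a process called presynaptic inhibition. GABA-B receptors are G protein-coupled heterodimers of the Gabbr1 product, which binds GABA, and the Gabbr2 product, which carries it to the cell surface and couples to the G protein. CpG methylation is usually low at the starts of genes in CpG-rich DNA and high over gene bodies and between genes.

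Reduced representation bisulfite sequencing cuts DNA at CCGG with the enzyme MspI and reads the fragment ends, and each value is the percent of reads at a CpG cytosine that kept a C, which marks methylation. The ganglion was read whole, so a different mix of neurons and glia and a change within cells cannot be told apart. Methylation calls hold no expression, so the tissue label was not checked against cell type markers. Coverage summed over listed cytosines was 29420922 to 34293779 in SNL libraries and 27247702 to 32243538 in Sham libraries. In these sums a read counts once for each listed cytosine it covers. The 25 annotated sites had 100 to 660 reads per library. Annotated sites within 50 bases of each other can lie on the same reads, and the 25 sites fall into 15 such groups. Positions are those of the files (rn4, rat), and the labels' text also names a human assembly.

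The Gabrb2 promoter is shown because the deposited calls cover it and its CpGs could be tied to the sequence. Gabrb2 encodes a beta subunit, which forms part of the GABA binding pocket. The RefSeq window (GRCr8) around its start, from 250 bases before to 50 after, holds 9 CpGs. The files list 10 positions in the matching stretch of rn4, and a single shift of -2 bases placed all 10 on CpGs of the window, where the next best shift placed 7. All 9 CpGs were covered, 1 of them at both its C and its G, and they are in capitals. The window holds the MspI motif CCGG (a palindrome, so the same on both strands), at -136 and at 11 bases from the start. CCGG occurs in 51.4% of the 33469 promoter windows of that table.

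Gabrb2 promoter, GRCr8 chr10:27439633-27439822, plus strand, 160 bases before to 30 after the start: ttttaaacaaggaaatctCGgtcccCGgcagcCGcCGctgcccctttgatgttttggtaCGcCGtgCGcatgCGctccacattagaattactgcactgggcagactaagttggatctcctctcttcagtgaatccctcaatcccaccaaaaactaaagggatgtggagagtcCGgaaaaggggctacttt

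This promoter was almost free of methylation in both groups. Over the 10 positions, methylation was 0.851%, 1.53% and 3.21% in SNL 1 to 3, against 2.32%, 1.79% and 1.74% in Sham 1 to 3. The groups overlapped, with means of 1.86% ± 1.22 in SNL ganglia and 1.95% ± 0.319 in Sham ganglia (SD, n = 3). Each position had 13 to 41 reads per library. Position means ran from 0% to 7.78% in SNL libraries and from 0% to 5.82% in Sham libraries. Gabrb2 stands apart from the other members in sequence, since its window has 9 CpGs and 44% G and C, against 32 to 47 CpGs and 70.7 to 78.7% G and C in the windows of Gabra4, Gabra5, Gabrg3, Gabbr1 and Gabbr2. The median over all windows was 7 CpGs. RefSeq windows matched 6 of the 7 genes.

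None of the 25 annotated sites passed the test of SNL against Sham. Each site was tested with a logistic model of methylated and unmethylated reads, with the spread between libraries shared across all 32674 sites (limma's squeezeVar) and Benjamini-Hochberg adjustment over all of them. Adjusted p ran from 0.249 to 0.995 for the 25 sites, while 1.27% of all annotated sites passed at 0.05, 1.12% lower and 0.153% higher after SNL. At an unadjusted p under 0.05 there were 4 of 25 sites, beside 13% of all annotated sites. Of these 4, 3 were lower after SNL, beside 10.2% of all sites, and 1 was higher, beside 2.82%. With limma on logit values 1 of 25 reached that level, beside 10.7% of all sites, and 0 passed. Groups did not overlap at 8 of the 25 sites, beside 17.8% of all annotated sites. Of these, 5 lay lower after SNL, beside 13.2% of all sites, and 3 lay higher, beside 4.64%. In the authors' deposited table the lowest q over the same sites was 0.117.

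How large a missed difference could be was read from intervals that rest on the spread shared across all sites. Intervals without that sharing were not computed, and 0 of all annotated sites passed without it. The 95% interval of the difference (unadjusted, from the same model) lay within 10 points either way at 21 of the 25 sites. The other 4 were the Gabrb2 site 63.4 kb from the start, the Gabbr1 sites 1.16 and 2.84 kb from the start and the Gabbr2 site 164.4 kb from the start. Half-widths of the intervals ran from 1.54 to 7.96 points.

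**Figure D1:**
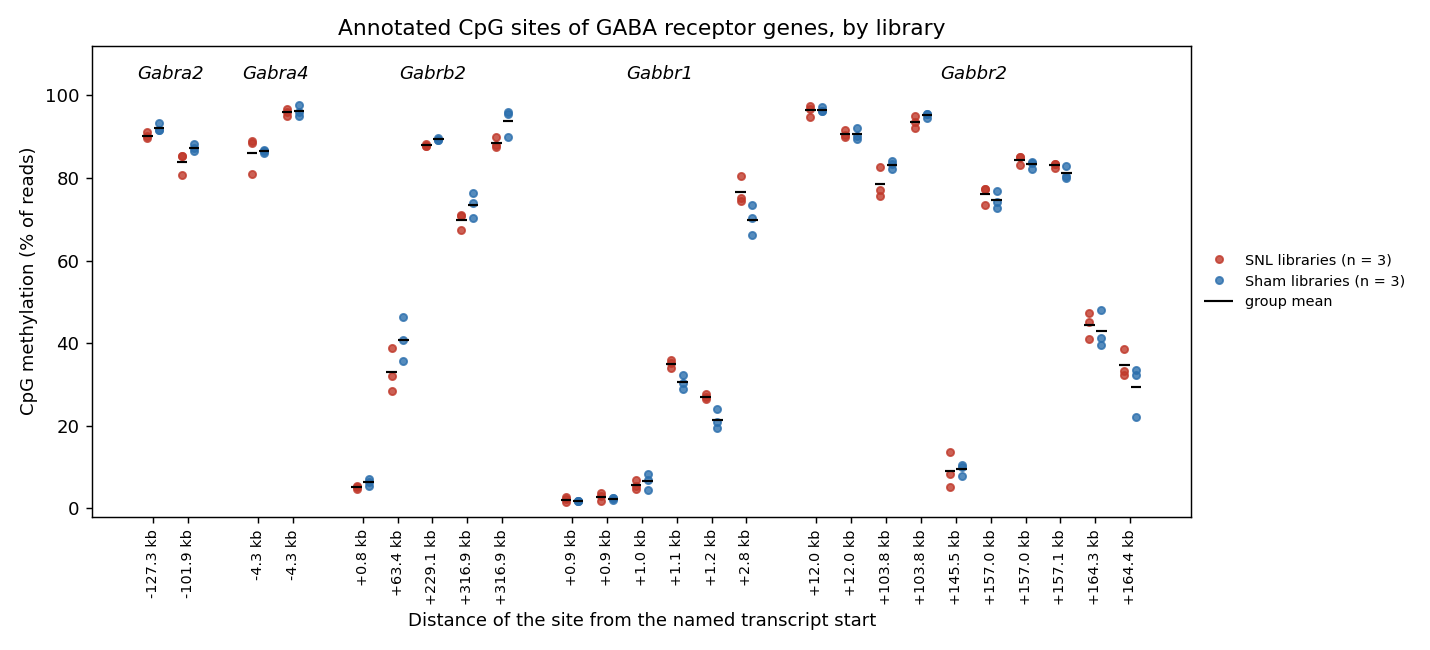
Methylation (% of reads) at the 25 annotated sites in each SNL (red, left) and Sham (blue, right) library, with group means as bars, by gene and distance from the transcript start. Levels vary far more between sites than between groups, from about 2% near the Gabbr1 start to over 90% at Gabra4.

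The alpha subunit genes were read upstream of their starts, where methylation was high. Gabra2 encodes an alpha subunit common at synapses. Its 2 annotated sites carry no promoter, exon or intron flag and lie upstream on chromosome 14, at -127.3 and -101.9 kb from the start (positions 39441401 and 39466733). At the farther site methylation was 90.1%, 89.6% and 91.2% in SNL 1 to 3, against 91.6%, 93.3% and 91.7% in Sham 1 to 3. At the nearer site it was 85.4%, 80.8% and 85.3% in SNL 1 to 3, against 87.2%, 88.2% and 86.4% in Sham 1 to 3. All SNL libraries lay below all Sham libraries at both sites, with differences of -1.90 and -3.44 points, and neither passed (adjusted p = 0.523 and 0.562). Without SNL 2 the difference at the nearer site was -1.93 points. Close to the nearer site, a position at -102121 bases had 57.1%, 75% and 60% in SNL 1 to 3, against 87.5%, 72.7% and 86.7% in Sham 1 to 3, from 11 to 24 reads per library. Its difference of -18.25 points was the largest of the 95 sites, for which it is named after its values were seen, and the groups overlapped (adjusted p = 1).

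Gabra4 encodes an alpha subunit found mainly in receptors outside synapses. Its 2 annotated sites lie upstream on chromosome 14, at -4276 and -4295 bases from the start (positions 39043185 and 39043166), and can share reads. At the nearer site methylation was 95%, 96.6% and 96% in SNL 1 to 3, against 95.1%, 97.8% and 95.9% in Sham 1 to 3. At the farther site SNL 1 stood at 81.1%, below SNL 2 and SNL 3 at 88.4% and 89%, against 86.1 to 86.9% in Sham libraries. Differences were -0.375 and -0.367 points (adjusted p = 0.941 and 0.956), and the interval at the nearer site was -2.63 to 1.88 points.

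Gabrb2, the beta subunit gene, had lower means after SNL at all 5 annotated sites on chromosome 10, with differences of -7.75 to -1.28 points, and none passed (adjusted p = 0.249 to 0.689). The site with the lowest p of all 25 lay 316.9 kb from the start, outside the promoter, exon and intron flags (position 27919007). Methylation there was 88.1%, 87.4% and 89.9% in SNL 1 to 3, against 95.5%, 89.9% and 95.9% in Sham 1 to 3. SNL libraries lay below Sham libraries, though SNL 3 and Sham 2 both round to 89.9%, and the difference was -5.35 points ± 2 (SE, adjusted p = 0.249, and 0.121 to 0.806 under other settings). Its neighbour 42 bases away, close enough to share reads, stood at 70.8%, 67.4% and 71.2% in SNL 1 to 3, against 76.4%, 70.4% and 74% in Sham 1 to 3, where the groups overlapped.

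The other Gabrb2 sites span the range of levels. In an intron 63.4 kb from the start (position 27665504) methylation was 38.9%, 28.4% and 32.1% in SNL 1 to 3, against 46.4%, 40.7% and 35.6% in Sham 1 to 3. The groups overlapped and differed by -7.75 points ± 3.75 (SE, adjusted p = 0.383). The difference was -5.01 points without Sham 1 and -6.25 points with library offsets. At 229.1 kb (position 27831195) means were 87.9% ± 0.218 in SNL ganglia and 89.4% ± 0.221 in Sham ganglia (SD, n = 3), which did not overlap but differed by -1.45 points (adjusted p = 0.689). In the promoter flag at 775 bases (position 27602858) they were 5.05% ± 0.335 in SNL ganglia and 6.33% ± 0.755 in Sham ganglia, again without overlap (SD, n = 3; adjusted p = 0.683). Chosen after its values were seen, a position at 991 bases had 0%, 4% and 0% in SNL 1 to 3, against 10.5%, 11.8% and 11.1% in Sham 1 to 3, from 12 to 34 reads per library (adjusted p = 1).

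Gabbr1 encodes the GABA-binding subunit of the GABA-B receptor. All its 6 annotated sites carry the flags for intron and CpG island shore, the flank of an island, and 3 of them also the promoter flag (chromosome 20, minus strand). The sites in the promoter flag had little methylation in both groups. At 925, 941 and 972 bases the sites averaged 2.12% ± 0.559, 2.82% ± 1.01 and 5.67% ± 1.13 in SNL libraries, against 1.67% ± 0.0451, 2.3% ± 0.215 and 6.55% ± 1.88 in Sham libraries (SD, n = 3). Over all 2387 promoter-flagged annotated sites the median was 2.85% in SNL ganglia and 2.78% in Sham.

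Beyond this stretch of low methylation the level was higher by the next sites read. At 1114 bases (position 1581313) it was 33.9%, 36% and 35.2% in SNL 1 to 3, against 28.9%, 32.2% and 30.3% in Sham 1 to 3. At 1155 bases (position 1581272) it was 27%, 27.6% and 26.4% in SNL 1 to 3, against 19.5%, 20.9% and 24% in Sham 1 to 3. At 2838 bases (position 1579589) it was 80.4%, 74.5% and 75.2% in SNL 1 to 3, against 70.4%, 66.1% and 73.4% in Sham 1 to 3. At these 3 sites every SNL library lay above every Sham library, by 4.52, 5.52 and 6.73 points between means, and none passed (adjusted p = 0.486, 0.309 and 0.448). At 1155 bases, where p was lowest, adjusted p was 0.199 to 0.806 under other settings. The sites at 1114 and 1155 bases lie 41 bases apart and can share reads, so they are not separate evidence. The interval at 1155 bases was 0.55 to 10.5 points.

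Sites around these rows extend the Gabbr1 profile in both directions. At 283 to 305 bases, 5 positions averaged 2.71% ± 1.9 in SNL ganglia and 0.888% ± 0.91 in Sham ganglia (SD, n = 3), with 13 to 24 reads each. At 681 to 726 bases, 5 positions averaged 2.21% ± 1.94 in SNL ganglia and 0.629% ± 0.555 in Sham ganglia (SD, n = 3). At 2980 bases methylation was 96.4% ± 0.859 in SNL ganglia and 94.6% ± 0.577 in Sham ganglia (SD, n = 3). Farther in it was lower again. From 3950 to 3984 bases, 7 positions together came to 23.2%, 21.4% and 40.7% in SNL 1 to 3, against 19.2%, 29.2% and 7.02% in Sham 1 to 3. From 4566 to 4615 bases, 5 positions together came to 31.8%, 16.1% and 29.8% in SNL 1 to 3, against 19.9%, 11.8% and 23.5% in Sham 1 to 3. Groups overlapped in both stretches, which had 23 to 51 reads per position. The largest difference of a Gabbr1 position with 20 or more reads was 14.8 points, at 3984 bases, with an interval of -7.28 to 36.8 points (adjusted p = 1). A position at 3979 bases is named after its values were seen, and it can share reads with the one at 3984 bases. The position at 3979 bases had 16.2%, 21.4% and 29.7% in SNL 1 to 3, against 9.76%, 10.7% and 7.32% in Sham 1 to 3, and did not pass (adjusted p = 1).

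**Figure D2:**
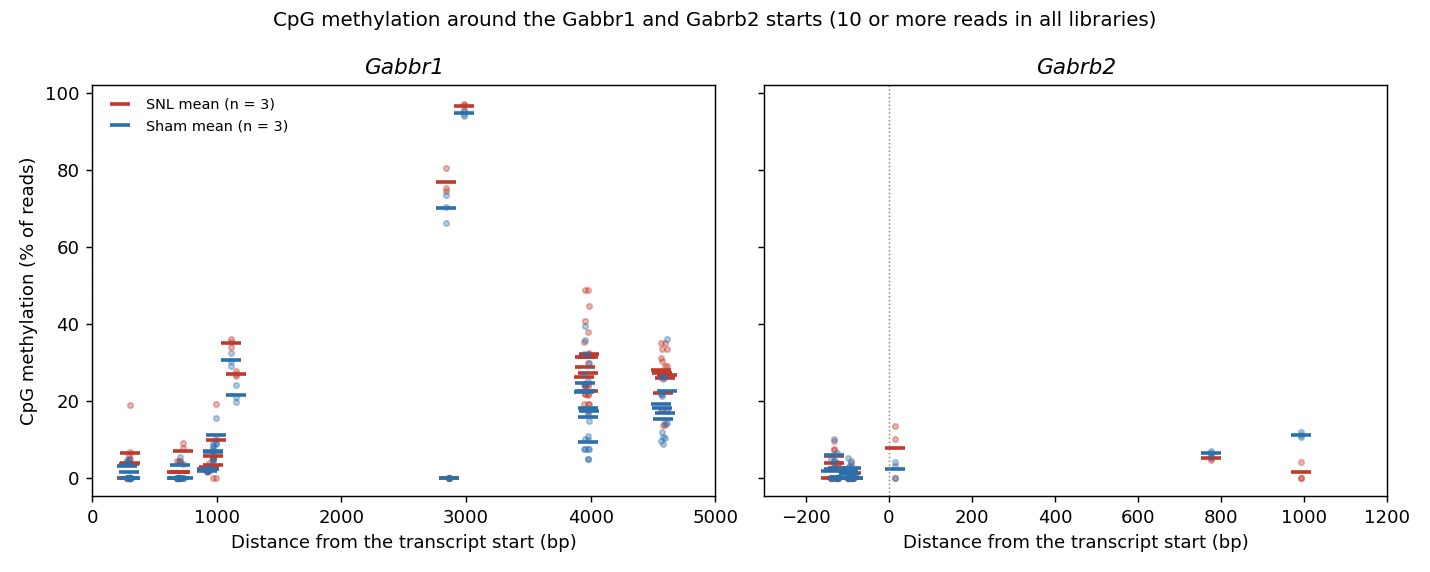
Methylation (% of reads) against distance in bp from the Gabbr1 and Gabrb2 starts, at positions with 10 or more reads in all libraries; dots are libraries, bars are means of 3 SNL (red) or 3 Sham (blue) libraries. Gabbr1 means stay under 12% within 1 kb, reach 96.4% in SNL ganglia and 94.6% in Sham at 2980 bases and are lower again near 4 kb, while the Gabrb2 promoter stays near 0.

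Gabbr2 encodes the subunit that couples the GABA-B receptor to G proteins. Its 10 annotated sites all carry the intron flag, on chromosome 5, from 12 to 164.4 kb inside the gene, in 5 groups of close sites. The flag does not say which intron. Near 12 kb a pair of sites averaged 90.7% ± 0.823 and 96.4% ± 1.35 in SNL ganglia, against 90.6% ± 1.38 and 96.5% ± 0.592 in Sham ganglia (SD, n = 3). Differences were 0.145 and -0.109 points, with intervals of -2.7 to 2.99 and -2.05 to 1.84 points. The 3 sites near 157 kb were the deepest, with 546 to 660 reads, and were 1.09 to 2.04 points higher after SNL with overlapping groups (adjusted p = 0.591 to 0.804).

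The Gabbr2 site with the lowest p lay 103.8 kb from the start (position 63508103). Methylation there was 75.7%, 77% and 82.6% in SNL 1 to 3, against 84.1%, 82.1% and 83.3% in Sham 1 to 3. SNL 3 lay within the Sham range, and the difference was -4.70 points ± 2.21 (SE, adjusted p = 0.355, and 0.232 to 0.806 under other settings). The site 26 bases away stood at 93.5% ± 1.51 in SNL ganglia and 95.2% ± 0.585 in Sham ganglia (SD, n = 3). A pocket of low methylation lay at 145.5 kb (position 63466417), with 13.5%, 5.14% and 8.33% in SNL 1 to 3, against 10.1%, 10.4% and 7.91% in Sham 1 to 3. The 5 positions from 145735 to 145857 bases, beside it, together came to 33.7% ± 6.48 in SNL ganglia and 31.8% ± 2.11 in Sham ganglia (SD, n = 3). Over the 8132 intron sites outside promoters the median was 83.8% in SNL ganglia and 85% in Sham. At 164.3 and 164.4 kb methylation was also intermediate, at 44.5% ± 3.13 and 34.7% ± 3.46 after SNL, against 43% ± 4.49 and 29.3% ± 6.32 in Sham ganglia (SD, n = 3). The difference at 164.4 kb was 5.40 points, and 1.77 points without Sham 2.

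**Figure D3:**
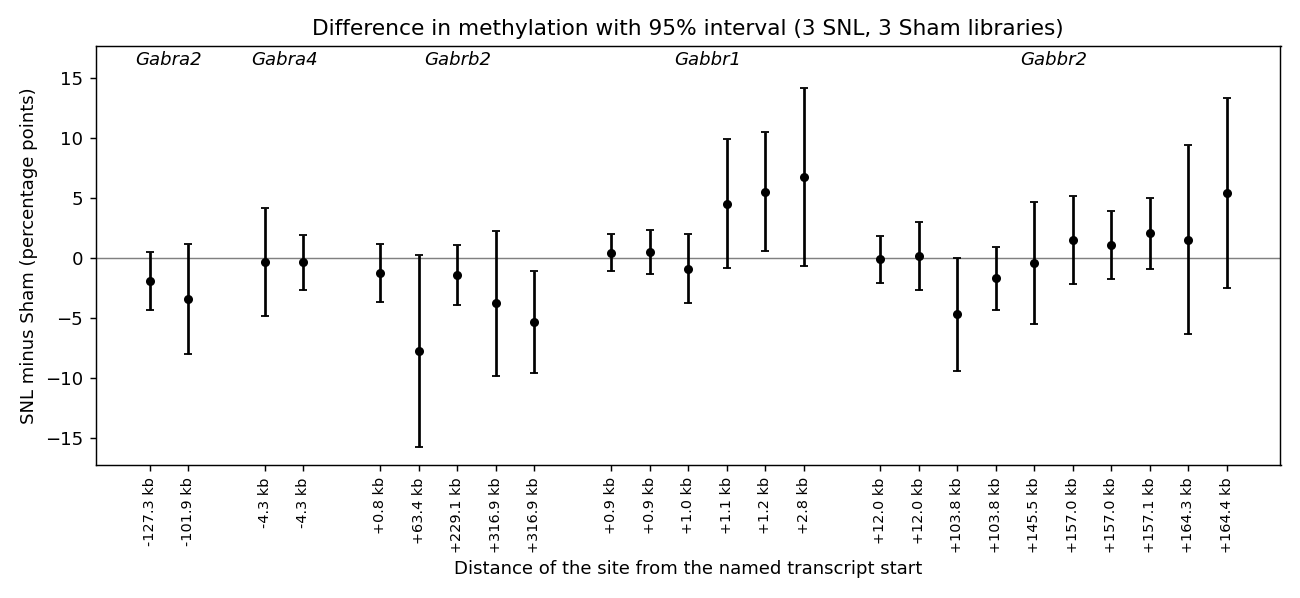
Difference in methylation (SNL minus Sham, percentage points) at the 25 annotated sites with 95% intervals from the logistic model, by gene and distance from the start. Points run from -7.75 to 6.73, and 3 intervals exclude 0 before adjustment.

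By direction, the 9 sites of GABA-A subunit genes were all lower after SNL, 8 of them also with an offset for every library, but 7 without SNL 1 and 8 without Sham 2, and of the 16 sites of GABA-B subunit genes 11 were higher and 5 lower. This made 14 of 25 lower, where over all annotated sites 61.3% were lower and the median difference was -0.55 points. The offsets take out each library's median shift, measured at sites of intermediate methylation only. For highly methylated sites, as at Gabra2 and Gabra4, the shift thus comes from sites of another level. With the offsets 1 of the 2 Gabra4 sites turned higher, and Gabbr2 had 7 of 10 higher in place of 6. The directions at Gabra2, Gabrb2 and Gabbr1 kept their counts. Some Gabbr2 signs also turned when a library was left out. No site passed, so these are counts of signs, and close sites share reads. Of the 9 GABA-A sites 7 carry no promoter, exon or intron flag, while all 16 GABA-B sites carry the intron flag. The receptor classes were thus also read at different kinds of sites.

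With reads added up over the annotated sites of a gene, Gabra4 had the highest level, at 91% after SNL and 91.4% in Sham. Next came Gabra2, at 88.4% after SNL and 90.6% in Sham, and Gabbr2, at 78% after SNL and 77.5% in Sham. Gabrb2 stood at 60.1% after SNL and 63.3% in Sham, and Gabbr1 was lowest, at 20.1% after SNL and 17.4% in Sham. Gabra4 and Gabra2 overlapped between libraries, while the other neighbours in this order did not. The genes were read at different kinds of sites, within 3 kb of the start in Gabbr1 and up to 316.9 kb away in Gabrb2. None of the 5 passed the same test on summed counts, and 0 of 5 had an unadjusted p under 0.05, beside 13.7% of all genes. Of the 8016 genes, 0.536% passed, 0.511% lower and 0.025% higher after SNL. Groups did not overlap for 1 of the 5, Gabra2, which was lower, beside 19.5% of all genes, 15.8% lower and 3.69% higher.

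Gabrb2 came to 62.3%, 60.5% and 57.4% in SNL 1 to 3, against 64%, 61.5% and 64.4% in Sham 1 to 3, with overlapping groups (adjusted p = 0.43). Gabra2 came to 88.7%, 87.1% and 89.5% in SNL 1 to 3, against 90.1%, 91.6% and 90.1% in Sham 1 to 3, which did not overlap (adjusted p = 0.452). Gabbr1 came to 21.5%, 17.7% and 20.9% in SNL 1 to 3, against 17.6%, 16% and 18.5% in Sham 1 to 3 (adjusted p = 0.447). The Gabrb2 difference was -3.26 points, and -1.93 points without SNL 3. With library offsets the differences came to -1.79 points for Gabrb2, -1.62 for Gabra2 and 3.59 for Gabbr1 (adjusted p = 0.698, 0.622 and 0.279). For Gabbr2 and Gabra4 differences were 0.50 and -0.36 points, the second of which turned to 0.05 with offsets, with intervals of -1.56 to 2.56 and -3.68 to 2.96 points.

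The genes whose 6 library values, each centred on its own mean, lay closest to those of Gabrb2 were Rbp7, Mir222 and Fmr1. Their mean gaps to Gabrb2 were 0.432, 0.492 and 0.493 points, where the median over 4205 genes with 3 or more annotated sites was 1.98 points. These were picked as the smallest gaps, so they lie below that median by selection.

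Among the 95 sites within 2 kb, none passed. With the same test over all 424646 sites, 0 sites of the genome passed (0%), and 11292 had an unadjusted p under 0.05 (2.66%). Of the 95, 4 were at that level, 2 lower, beside 1.93% of all sites, and 2 higher after SNL, beside 0.732%. With the spread shared over informative sites, a setting added after seeing the data, 10 of the 95 were at that level, beside 6.15% of all sites, and none passed. Means were lower after SNL at 45 of the 95, beside 53.7% of all sites. Groups did not overlap at 15 of the 95, beside 10.2% of all sites, 7 lower and 8 higher after SNL, beside 6.62% and 3.59%. The depth here was low, with under 20 reads in some library at 35 of the 95 sites, so a change there could be missed. The main test passed no site of the genome, while 1090 passed with the spread shared over informative sites. A change could thus be missed at deeper sites too. At a Gabbr2 position 12252 bases from the start, with 73 to 139 reads, methylation was 71.4%, 64.1% and 58.4% in SNL 1 to 3, against 69.1%, 78.8% and 75.3% in Sham 1 to 3. SNL 1 lay within the Sham range (difference -9.75 points, interval -20.9 to 1.39, adjusted p = 1).

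Other genes of GABA signalling were summed in the same way. Of 63 genes in 5 lists, 39 had an annotated site matched to their symbol, and none passed in either direction (0 lower, 0 higher), beside 0.536% of all genes. At an unadjusted p under 0.05 there were 4 of the 39, and groups did not overlap for 7, beside 13.7% and 19.5% of all genes. The lowest adjusted p was 0.232, and 29 of the 39 (74.4%) were lower after SNL, beside 66.9% of all genes. With library offsets 21 of the 39 (53.8%) were lower, beside 51.5% of all genes, and the median over all genes moved to -0.06 points, against -0.79 without offsets. Among 8 other GABA-A and GABA-rho subunit genes, 7 were lower, with a median of -1.19 points, and 5 were lower with offsets. Here Gabrd, the delta subunit of receptors outside synapses, averaged 65% ± 2.76 in SNL ganglia and 68.3% ± 0.984 in Sham ganglia (SD, n = 3; adjusted p = 0.536).

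Among 5 genes of GABA synthesis, transport and breakdown, 3 were lower, with a median of -2.46 points, and 3 with offsets. Slc6a13, a GABA transporter, averaged 66.3% ± 2.75 in SNL ganglia and 69.8% ± 1.2 in Sham ganglia (SD, n = 3; adjusted p = 0.361). Aldh5a1, an enzyme of GABA breakdown with 1 annotated site, averaged 62.3% ± 4.66 in SNL ganglia and 70.9% ± 5.8 in Sham ganglia (SD, n = 3; adjusted p = 0.515). All 6 chloride transport genes were lower, with a median of -1.39 points and overlapping groups in each, but only 3 of the 6 with offsets. Wnk1, a kinase that controls chloride carriers, averaged 27.6% ± 1.88 in SNL ganglia and 31.6% ± 5.03 in Sham ganglia (SD, n = 3; adjusted p = 0.532). Slc12a1, a sodium-potassium-chloride carrier, averaged 91.6% ± 1.1 in SNL ganglia and 93.3% ± 1.23 in Sham ganglia (SD, n = 3; adjusted p = 0.593). Slc12a2, the carrier that loads sensory neurons with chloride, is named for that role after values were seen, at 49.7% ± 2.85 in SNL ganglia and 53.7% ± 5.87 in Sham ganglia (SD, n = 3; adjusted p = 0.659).

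Of 7 genes of GABA-A receptor anchoring and trafficking, 3 were lower and 4 higher, with a median of 0.22 points, and 2 were lower with offsets. Trak1, an adaptor for motor transport, averaged 84.7% ± 0.841 in SNL ganglia and 86.5% ± 0.84 in Sham ganglia, without overlap (SD, n = 3; adjusted p = 0.244). Plcl1, a GABA-A receptor-binding protein, averaged 87.1% ± 1.93 in SNL ganglia and 89.5% ± 1.07 in Sham ganglia (SD, n = 3; adjusted p = 0.367). Of 13 GABA-B auxiliary and effector genes, 10 were lower and 3 higher, with a median of -1.49 points, and 8 were lower with offsets. Gnao1, a G protein alpha subunit, averaged 88.7% ± 1.21 in SNL ganglia and 91.7% ± 0.743 in Sham ganglia, without overlap (SD, n = 3; adjusted p = 0.232). Gnai2, an inhibitory G protein subunit, averaged 67% ± 6.28 in SNL ganglia and 75.4% ± 0.229 in Sham ganglia, also without overlap (SD, n = 3; adjusted p = 0.344). The Gnai2 values come from 1 annotated site, with 71.6%, 69.5% and 59.8% in SNL 1 to 3, against 75.7%, 75.2% and 75.3% in Sham 1 to 3.

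**Figure D4:**
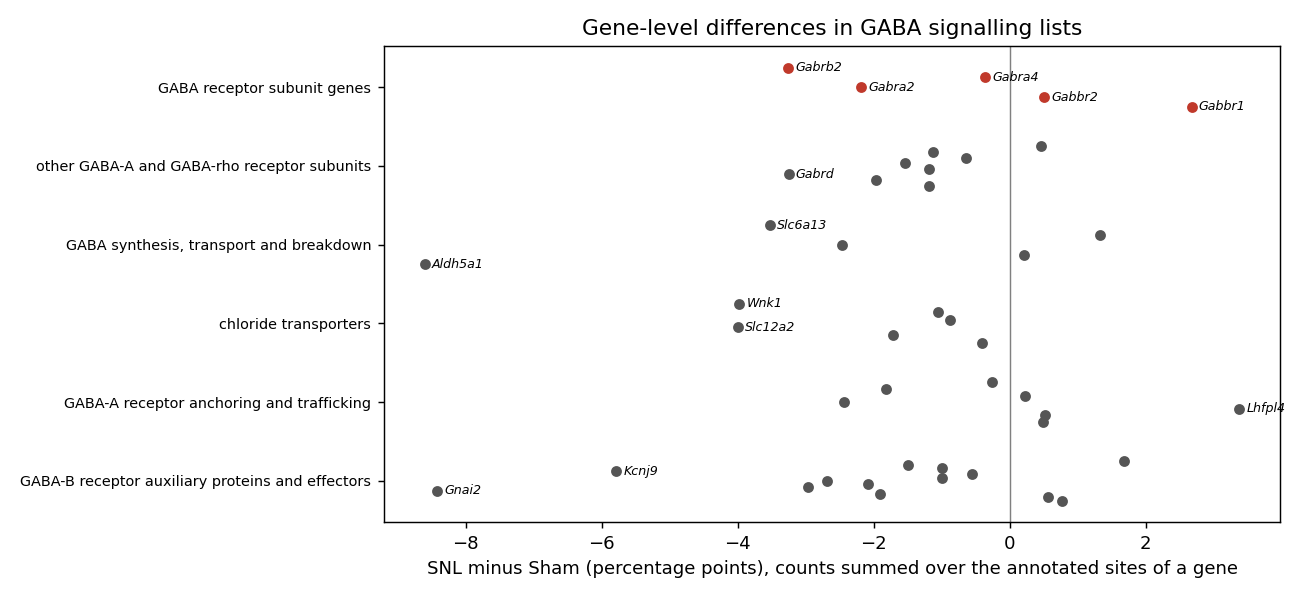
Difference in methylation (SNL minus Sham, percentage points) from reads added up over a gene's annotated sites, by list; red points are the 5 GABA receptor subunit genes measured and grey points the other lists, with names at differences over 3 points. Most points lie between -4 and 2, no gene passed, and the lean below 0 is smaller with library offsets (21 of 39 other genes lower, in place of 29).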

How the data were processed

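The submitters' processing notes name Bismark 0.18.1, Bowtie2, methylKit 1.3.3 and the rat build rn4. Per the file headers, a library's file gives coverage (a count of reads) for each cytosine, with the percent that read C or T. The deposited series table holds each library's percent methylation, a p-value and q-value by the authors, their difference in points (a score column here), flags and the distance to the nearest start. Settings of that test: not given in the sources used here.

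Methylated counts were recovered as coverage times the percent of C. RefSeq accessions were matched to symbols in a GRCr8 gene table, used for names only (7627 of 8123 transcripts). Each feature was fitted with a logistic regression on group. The Pearson overdispersion (4 residual degrees of freedom) was moderated across all features with limma's squeezeVar, to no less than 1. P-values came from a two-sided F test, with Benjamini-Hochberg adjustment and a threshold of 0.05. It was run on annotated sites (100 reads or more), on sites with 10 or more reads and on gene sums, and tested on simulated data. Mitochondrial sites were left out. Intervals use the same overdispersion. Library offsets, no moderation, limma on logit values (pseudocount 1), a replicate block, other coverage minimums and leaving out each library were the alternatives, and a spread shared over informative features was added after seeing the data.

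The members and gene lists were chosen with earlier results of these data known. Named are each member's site of lowest p, its largest difference among sites with 20 reads or more, and the 2 genes of lowest p per list, of which 1 gene is not reported here. Fits ran in R 4.3.3 with limma 3.58.1. Tables and figures used Python 3.11.15, with numpy 2.4.6 for arrays, pandas 2.3.3 for tables and matplotlib 3.10.9 for drawing.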

Additional observations from a re-analysis of the deposited data

How the results depend on the processing

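No member site or gene passed in any fit: 0 annotated sites, 0 sites within 2 kb and 0 gene sums under each other setting run. The range was 0 to 0 when each library was left out. The count was likewise 0 with the spread shared over informative features, which was chosen after seeing the data. Some of these fits passed no feature at all, so a count of 0 members was fixed there and shows nothing about the members. For sites with 10 reads or more these were the main fit, library offsets, no moderation, limma, the replicate block and each fit without a library. For annotated sites they were no moderation and limma, and for gene sums no moderation. The lowest adjusted p of an annotated member site was 0.121, at Gabrb2 without Sham 2, and 0.806 without moderation. Directions near 0 turned. Leaving out a library, the nearer Gabra4 site ran from -0.949 points without Sham 1 to 0.387 without Sham 2, and was 0.066 without SNL 1. The Gabra4 sum ran from -1.116 points without SNL 3 to 1.135 without SNL 1, was 0.008 without Sham 2, and was 0.049 with library offsets. The Gabbr2 sum ran from -0.358 points without SNL 3 to 1.204 without SNL 1. The farther Gabra4 site turned to 2.178 points without SNL 1. Gabbr2 sites turned as well. At 145.5 kb the difference went from -0.45 to 1.483 points without SNL 2, and at 164.3 kb from 1.512 to -0.165 points without Sham 2. In the pair near 12 kb it went from 0.145 to -0.312 and from -0.109 to 0.639 points without SNL 2. The cause was not tested.

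Counts over all features depended on the test. Of annotated sites, 415 passed (365 lower, 50 higher), 351 with library offsets (221 lower, 130 higher), 163 with the replicate block, and 0 without moderation or with limma (1965 and 3480 at an unadjusted p under 0.05). Leaving out a library gave 107 (Sham 3) to 461 (SNL 1). Of sites with 10 reads or more, 0 passed, 1090 with the spread shared over informative sites, 1 at 20 reads or more and 391 at 50 reads or more. Of gene sums, 43 passed, 44 with library offsets, 10 with the replicate block, 6 with limma and 0 without moderation, and 3 to 74 without a library. In the replicate block, 0 member sites passed. The libraries share replicate numbers, but the labels do not say whether equal numbers share an animal. For equal numbers the correlations of deviations from group means were -0.055, 0.256 and -0.135. For unequal numbers they ran from -0.293 (SNL 2 with Sham 1) to 0.341 (SNL 3 with Sham 1), which leaves the pairing unsettled. Coverage of 10 to 20 reads limits what could be seen near these genes.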

Other observations

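A listed position of Gabbr1 at 2860 bases from the start (chromosome 20, position 1579567) read 0% in all 6 libraries from 12 to 32 reads each, while the annotated site 22 bases nearer the start stood at 76.7% ± 3.25 in SNL ganglia and 69.9% ± 3.67 in Sham ganglia (SD, n = 3). From 3950 to 3984 bases from the same start, the spread between libraries of a group was 10.7 points after SNL and 11.1 points in Sham (SD), with 27 to 42 reads per position. At 1114 to 1155 bases it was 0.717 points after SNL and 1.54 points in Sham, with 221 to 289 reads per position.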
